A study of Mus musculus with 8 samples.

Results

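The comparison set cells sorted from the cortex of Dnmt1 knockout mice aged 18 months against those from knockout mice aged 6 months. It used the 2 knockout libraries of each age, 4 of the 8 libraries in the series, chosen by sample title and described across all genes. The knockout groups (KO) carry PV-Cre, which drives recombination in parvalbumin-expressing cells, the tdTomato reporter and Dnmt1 loxP2 alleles, in which loxP sites flank exons 4 and 5. The wild-type groups (WT), of the same ages, carry PV-Cre, tdTomato and wild-type Dnmt1, and all mice are on a C57BL/6 background. Cells were pooled from 6 knockout and from 6 wild-type mice, 1 hemisphere of each mouse gave the RNA, and the 2 libraries of a group are technical replicates. Every p-value below therefore measures the spread between libraries of a pool and not the spread between mice.

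DNMT1 is the maintenance DNA methyltransferase, which copies CpG methylation onto the new strand after replication and is also expressed in neurons that no longer divide. Parvalbumin interneurons are fast-spiking GABA-releasing cells that inhibit the bodies of pyramidal neurons, and they are recognised by Pvalb, by Gad1 and Gad2 (GABA synthesis) and by the potassium channel gene Kcnc1. Brain ageing is known for reactive changes of glia and for altered synaptic and mitochondrial gene expression.

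Dnmt1 itself did not pass the test with age in KO. In CPM, read counts scaled to a common library size, it stood at 77.2 and 75.2 at 6 months and at 74.3 and 76.6 CPM at 18 months (76.2 ± 1.39 against 75.4 ± 1.64, SD, n = 2 each, log2 difference -0.01 ± 0.0708, SE, adjusted p = 0.901). The gene-level count takes in exons outside the floxed ones, so it does not measure the deletion. In WT it stood at 97.9 and 103.6 CPM at 6 months and at 80.8 and 81.1 CPM at 18 months.

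The labelled cell type was checked against its defining markers. Pvalb had 0 and 0 reads in the 6-month KO libraries and 1 and 0 reads in the 18-month libraries. Gad1 stood at 14.4 and 15 CPM at 6 months and at 6.87 and 6.04 CPM at 18 months. Mbp, myelin basic protein, stood at 3995 and 4134 CPM at 6 months and at 3832 and 4101 CPM at 18 months, and the astrocyte glutamate transporter gene Slc1a2 between 3668 and 4722 CPM in all 4 libraries. The data thus go against the label: the defining marker of parvalbumin cells was at or near 0, and the most abundant cell type markers were those of glia. The groups are called KO cells below for this reason. In bulk RNA, fewer cells of a type and less RNA per cell cannot be told apart, and this touches every result that follows.

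Total counts were 8973571 and 8481613 in the 6-month KO libraries and 12489638 and 11092756 in the 18-month ones. Of 18205 genes tested, 2512 (13.8%) were higher and 3263 (17.9%) lower at 18 months at an adjusted p under 0.05 (edgeR, quasi-likelihood F test, Benjamini-Hochberg adjustment), so that 31.7% were called in either direction. The falls were larger than the rises. The median fold was 1.34 among the genes that rose and 1.63 among those that fell, and in a test against a 1.5-fold change 126 genes (0.692%) passed as higher and 901 (4.95%) as lower. Both 18-month libraries lay above both 6-month libraries for 6046 genes (33.2%) and below them for 6212 (34.1%). The median log2 difference over all genes was 0.00. Scaling by library totals alone gave 3839 higher and 2543 lower genes, and an offset for exon length gave 4085 and 2572, so the split between directions depends on the scaling. The number of rises also rests on single libraries, at 1354 without the first 18-month KO library and 1231 without the second 6-month KO library. The falls numbered 2049 without the latter.

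**Figure D1:**
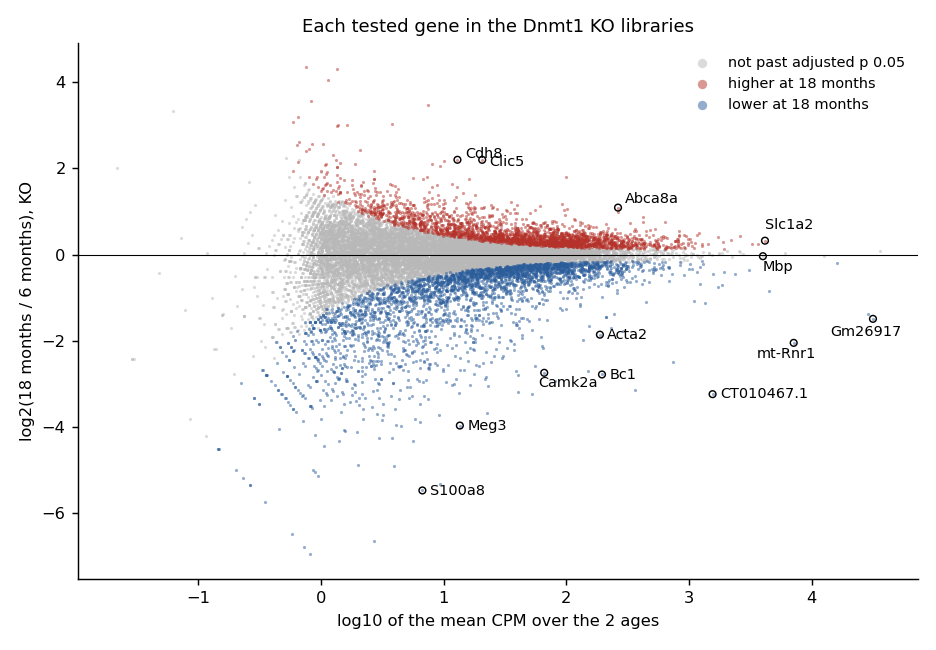
Log2 of 18 over 6 months in KO (vertical axis) against log10 of the mean CPM over both ages (horizontal axis) for the 18205 genes tested, with genes past an adjusted p of 0.05 in red (2512 higher) and blue (3263 lower) and several named genes circled. The blue points reach further from 0 than the red ones.

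The age difference tilted with base composition. Over 18194 genes with a GENCODE transcript, the log2 difference in KO ran against the GC content of the longest transcript with a Spearman correlation across genes of -0.51, and with -0.35 in WT. Genes of the lowest GC decile (median 38.4% GC) had a median log2 difference of 0.36, and 35.1% of them were higher. Genes of the highest decile (median 59.4% GC) had a median of -0.43, and 52.3% of them were lower. Exon length had a correlation of -0.015. A fit with a GC content offset, chosen after seeing the data, had a correlation of -0.02 and called 1754 genes higher (9.63%) and 2642 lower (14.5%), of which 1185 and 2074 were also called in those directions without the offset. The part of GC content in the results below was not tested, and counts with this offset are given beside some of the lists.

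**Figure D2:**
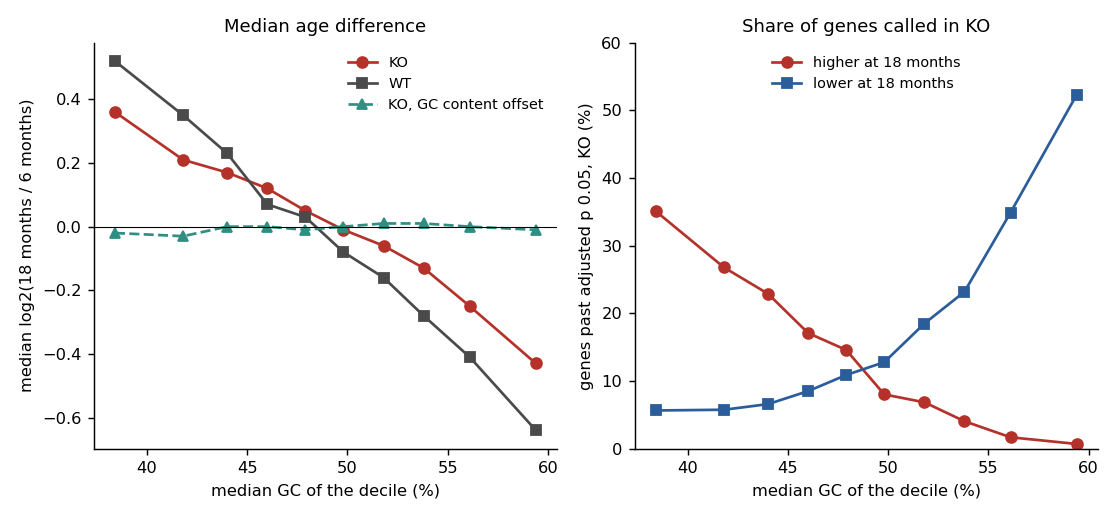
Left, median log2 of 18 over 6 months (vertical axis) for 10 classes of genes ordered by GC content (horizontal axis, median percent GC of the class) in KO, in WT and in KO with the GC content offset. Right, percent of the genes of each class called higher or lower in KO. Both genotypes slope downwards, from 0.36 to -0.43 in KO and from 0.52 to -0.64 in WT, and the line with the offset stays between -0.03 and 0.01.

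Neuronal genes fell together. Of 16 excitatory neuron markers tested, 13 fell and 1 rose, with a median log2 difference of -2.12. Slc17a7, the vesicular glutamate transporter of cortical pyramidal neurons, stood at 20.0 and 23.5 CPM at 6 months and at 2.52 and 2.93 CPM at 18 months (log2 difference -3.00 ± 0.195, SE, adjusted p = 3.25e-11). The age groups did not overlap, and both 18-month libraries lay below both 6-month ones for 34.1% of all genes tested. Camk2a, a calcium-dependent kinase of excitatory synapses, went from 113 and 117 CPM to 15.2 and 19.4 CPM, and Nrgn, a calmodulin-binding postsynaptic protein, from 16.3 and 18.3 CPM to 3.51 and 1.90 CPM. Rbfox3, which encodes the neuronal nuclear protein NeuN, was 10.2-fold lower (14.3 and 13.1 CPM against 1.15 and 1.55 CPM).

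Most genes of GABA neurons fell too. Of 12 tested, 8 fell and 1 rose (median -1.89). The summed level of the list, which weights abundant members, went the other way, from 919 and 939 CPM to 993 and 1020 CPM. Gad2 stood at 8.59 and 6.92 CPM at 6 months and at 1.30 and 1.29 CPM at 18 months (log2 difference -2.57 ± 0.271, SE, adjusted p = 1.10e-07). Gad1 was 2.27-fold lower (adjusted p = 1.78e-06). Slc32a1, which loads GABA into vesicles, rested on 40 reads in the 2 libraries at 6 months and 7 at 18 months. Dlx6os1, a non-coding RNA of the interneuron lineage, stood at 6.07 and 8.83 CPM against 0.611 and 0.604 CPM. Among 17 tested parvalbumin interneuron genes 9 fell and 1 rose (median -0.43, and -0.70 with the GC content offset). The summed level of this list did not fall, at 694 and 683 CPM at 6 months against 702 and 707 CPM at 18 months. Kcnc1, the Kv3 channel that permits fast spiking, stood at 20.4 and 21.5 CPM at 6 months and at 5.11 and 8.37 CPM at 18 months. Pvalb, Lhx6 and Pthlh of this list had too few reads to be tested. Of 12 tested genes of caudally derived interneurons 8 fell, and of 7 tested somatostatin interneuron genes 5 fell (3 without the first 18-month KO library and 3 without the second 6-month KO library).

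The synaptic machinery fell with these markers. In the list of synaptic vesicles and release, 30 of 41 genes were lower and 2 higher, with a median of -1.46. Syt1, the calcium sensor of fast transmitter release, stood at 36.8 and 40.1 CPM at 6 months and at 5.50 and 4.83 CPM at 18 months (log2 difference -2.89 ± 0.134, SE, adjusted p = 8.38e-14). Bsn, which encodes the active-zone scaffold Bassoon, went from 89.8 and 100.3 CPM to 15.8 and 16.0 CPM. For both genes both 18-month libraries lay below both 6-month ones, as for 34.1% of all genes tested. Of 43 neurotransmitter receptor genes 27 fell and 6 rose (median -0.56), and 28 of the 41 voltage-gated channel genes were lower and 3 higher (median -1.08). The summed level of the receptor list did not fall, at 2650 and 2700 CPM against 2710 and 2710 CPM. That of the release list fell from 3200 and 3240 CPM to 2720 and 2770 CPM, and that of the channel list from 2150 and 2210 CPM to 1820 and 1890 CPM. Grin2a, an NMDA receptor subunit, stood at 20.8 and 21.3 CPM at 6 months against 2.52 and 2.67 CPM at 18 months. The AMPA receptor subunit gene Gria2 was among the 6 receptor genes that rose, from 402 and 370 CPM to 611 and 532 CPM (1.48-fold, adjusted p = 5.10e-07). Gria2 has 36.8% GC, and with the GC content offset its log2 difference was 0.14 in place of 0.57. Scn8a, the sodium channel of the axon initial segment, stood at 62.9 and 63.6 CPM against 22.6 and 22.8 CPM.

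Non-coding RNAs of neurons were among the largest falls. Meg3, an imprinted long non-coding RNA that is abundant in neurons, stood at 24.0 and 27.0 CPM at 6 months and at 1.30 and 1.98 CPM at 18 months (15.6-fold lower, adjusted p = 2.54e-13). Its neighbours Rian and Mirg, transcribed from the same imprinted domain, were 3.40-fold and 3.04-fold lower, and reads of these neighbours may not be separated with certainty. Snhg11 stood at 148 and 139 CPM against 17.9 and 19.8 CPM, and Miat at 45.8 and 55.5 CPM against 11.1 and 8.71 CPM. Bc1 is the small cytoplasmic RNA of rodent neurons that is carried into dendrites and represses translation. Its annotated 168-base transcript is printed here, and where the reads lie along it was not examined. It lies on chromosome 7 from 144914470 to 144914637, plus strand, in GENCODE's mm10 annotation, with an adenine-rich stretch after its folded 5′ part:
Bc1: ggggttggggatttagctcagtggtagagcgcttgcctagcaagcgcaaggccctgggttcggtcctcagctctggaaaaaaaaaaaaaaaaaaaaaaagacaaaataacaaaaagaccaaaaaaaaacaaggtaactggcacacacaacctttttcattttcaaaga
Bc1 stood at 291 and 392 CPM at 6 months and at 45.0 and 54.8 CPM at 18 months (342 ± 71.7 against 49.9 ± 6.94, SD, n = 2 each, log2 difference -2.78 ± 0.126, SE, adjusted p = 5.14e-14). In WT it stood at 139 CPM at 6 months and 130 CPM at 18 months, and the age differences of the 2 genotypes differed (log2 -2.67, adjusted p of the difference 9.30e-12).

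Blood cell genes had the lowest medians of the lists with more than 1 tested member. All 8 tested leukocyte genes fell, with a median of -4.60, and 6 of 7 red blood cell genes fell, with a median of -3.19. S100a8 and S100a9 encode the calprotectin subunits of neutrophils. S100a9 stood at 20.4 and 16.5 CPM at 6 months and at 0.382 and 0.518 CPM at 18 months, and S100a8 at 13.2 and 13.1 CPM against 0.153 and 0.431 CPM (44.3-fold lower, adjusted p = 4.86e-11). The 18-month values rest on 11 and 7 reads in all. Ngp, a granule protein of immature neutrophils, stood at 10.8 and 10.9 CPM against 0.534 and 0.518 CPM. Of the haemoglobin genes, Hbb-bs stood at 69.5 and 75 CPM at 6 months and at 7.48 and 8.37 CPM at 18 months. The Hba and Hbb genes are near-identical pairs, so the split of reads between the members is uncertain. In WT the difference went the other way for S100a9 (0.571 CPM at 6 months, 1.49 CPM at 18 months) and for Hbb-bs (12.7 and 25.4 CPM).

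Microglial genes fell as a group. Of 18 tested, 17 fell, with a median of -1.38. Cx3cr1, the fractalkine receptor, stood at 21.1 and 24.2 CPM at 6 months and at 8.63 and 8.63 CPM at 18 months (2.62-fold lower, adjusted p = 4.21e-08). Csf1r, the receptor on which microglial survival depends, stood at 32.5 and 33.5 CPM against 13.3 and 12.2 CPM. The complement gene C1qa went from 13.7 and 12.7 CPM to 4.43 and 4.92 CPM, and Tmem119 from 10.2 and 10.6 CPM to 3.28 and 3.36 CPM. Lyz2, the lysozyme of myeloid cells, stood at 8.47 and 8.48 CPM against 0.458 and 0.604 CPM. Of the MHC class II genes, Cd74, the invariant chain, stood at 11.5 and 12.3 CPM at 6 months and at 2.29 and 1.90 CPM at 18 months, and H2-Ab1 at 5.15 and 3.70 CPM against 0.763 and 0.690 CPM. Over the 31 tested interferon and antigen presentation genes 5 fell and 1 rose (median 0.03). The falls (16.1%) were near the share of all genes (17.9%), and the rises (3.23%) were under it (13.8%).

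Vascular genes split by cell type. Of 16 genes of pericytes and smooth muscle 12 fell (median -0.94), and with the GC content offset 11 fell and 1 rose (median -0.55). The contractile genes of smooth muscle carried the largest of these falls. Acta2, smooth muscle actin, stood at 288 and 302 CPM at 6 months and at 77.5 and 85.7 CPM at 18 months (3.62-fold lower, adjusted p = 9.58e-16), and Myh11, smooth muscle myosin, at 366 and 345 CPM against 114 and 105 CPM. Of the pericyte markers, Pdgfrb stood at 312 and 345 CPM at 6 months and at 250 and 242 CPM at 18 months (1.34-fold lower, adjusted p = 8.93e-06). Rgs5 did not pass the test, at 505 and 483 CPM against 489 and 433 CPM (adjusted p = 0.263). Rgs5 passed as lower with the GC content offset (log2 -0.36, adjusted p = 3.42e-07). Kcnj8, a potassium channel gene of pericytes, stood at 57.0 and 59.7 CPM against 60.9 and 63.0 CPM, and it passed as higher only with the GC content offset among the settings tried (log2 0.21, adjusted p = 0.0431). Of 18 endothelial genes 3 fell (1 without the first 18-month KO library, median -0.20), near the share of all genes, and the tight-junction gene Cldn5 stood at 6.76 and 6.45 CPM against 8.70 and 6.64 CPM. Cldn5 did not pass (adjusted p = 0.484), except as higher with the GC content offset (log2 0.67, adjusted p = 0.0271).

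Collagens and basement membrane genes fell broadly, 30 of 39 tested against 2 that rose (median -0.69). With the GC content offset 26 fell and 3 rose (median -0.49). Col4a1, a main chain of vascular basement membranes, stood at 153 and 169 CPM at 6 months and at 83.4 and 76.6 CPM at 18 months. Col6a1 stood at 12.4 and 9.67 CPM against 0.992 and 0.518 CPM, 14.1-fold lower. The fibrillar Col3a1 stood at 13.7 and 10.9 CPM against 4.89 and 5.00 CPM. Proliferation genes were low and fell where they changed: of 23 tested, 10 fell (6 without the first 18-month KO library and 5 without the second 6-month KO library), among them Mki67, a nuclear protein of cycling cells (14.5 and 10.6 CPM against 1.45 and 1.12 CPM), and Top2a (9.05 and 8.95 CPM against 1.76 and 0.949 CPM).

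In the main edgeR fit (all 8 libraries, TMM scaling, minimum count of 10, no offset) no member rose in the following lists. None rose in them by DESeq2 either. They are the lists of microglia, border macrophages, endothelium, pericytes and smooth muscle, ependyma, somatostatin and caudally derived interneurons, red blood cells, leukocytes, proliferation and mitochondrially encoded proteins. An unadjusted p under 0.05 for a rise was found for 1 endothelial gene and 1 gene of caudally derived interneurons, and for 0 members of the others. With the GC content offset 2 endothelial genes and 1 gene of pericytes and smooth muscle rose. Of caudally derived interneuron genes 1 rose without a filter and 1 with KO libraries alone. Library totals and the exon length offset each gave 2 rises in that list and 1 endothelial rise. The zeros of these lists thus depend on the settings. Over all genes tested 13.8% rose, so a count of 0 says little for short lists. Such lists include border macrophages, with 2 tested members, and ependyma, with 5.

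**Figure D3:**
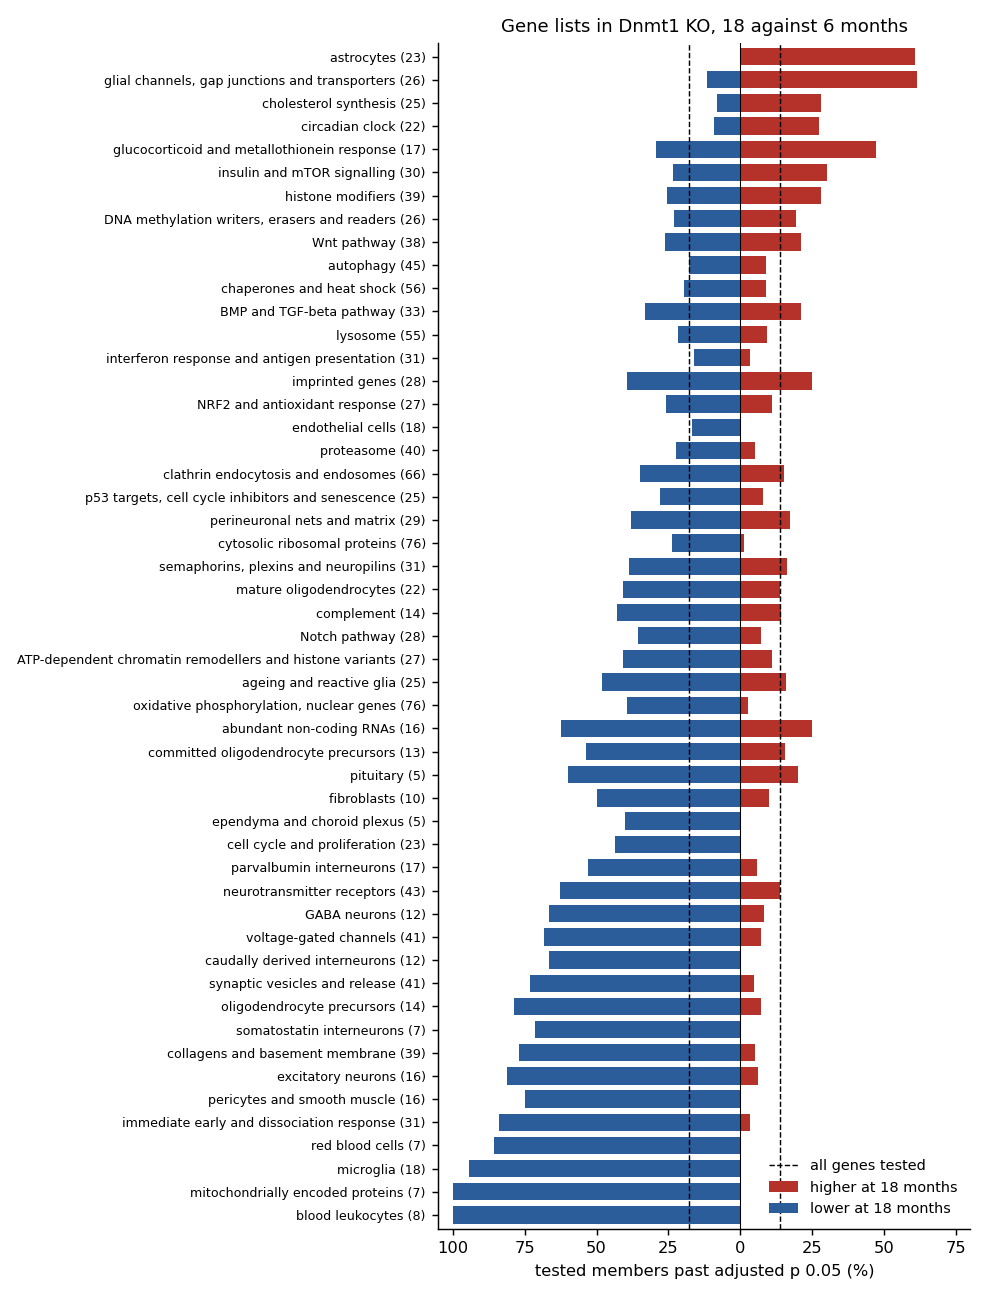
Percent of the tested members of each gene list (number tested in brackets) that passed an adjusted p of 0.05 as lower (blue, to the left) or higher (red, to the right) at 18 months in KO, with dashed lines at 17.9% and 13.8%, the shares over all genes. Lists with 5 or more tested members are shown. Blood, mitochondrially encoded, microglial, immediate early, pericyte, excitatory neuron, collagen and oligodendrocyte precursor lists are among those at the bottom, and astrocyte and glial transporter lists at the top.

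Immediate early genes, which are transcribed within minutes of neuronal activity or cell stress and also respond to tissue dissociation, were lower at 18 months in nearly the whole list. Of 31 tested, 26 fell and 1 rose, with a median of -0.78 (21 and 1 with the GC content offset). The 250 bases before the annotated start of Fos, Nr4a1 and Npas4 are printed from RefSeq (GRCm38.p6), because the promoters of these genes carry the letters TGACG, the core to which CREB binds. Capitals mark TGACG and its reverse complement CGTCA. Fos lies at chr12:85473640-85473889 on the plus strand, Nr4a1 at chr15:101266596-101266845 on the plus strand and Npas4 at chr19:4989972-4990221 on the minus strand.
Fos: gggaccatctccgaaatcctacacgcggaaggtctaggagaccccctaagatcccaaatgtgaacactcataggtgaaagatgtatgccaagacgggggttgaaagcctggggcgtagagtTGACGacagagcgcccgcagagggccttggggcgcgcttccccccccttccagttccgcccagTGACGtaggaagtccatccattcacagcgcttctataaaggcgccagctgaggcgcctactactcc
Nr4a1: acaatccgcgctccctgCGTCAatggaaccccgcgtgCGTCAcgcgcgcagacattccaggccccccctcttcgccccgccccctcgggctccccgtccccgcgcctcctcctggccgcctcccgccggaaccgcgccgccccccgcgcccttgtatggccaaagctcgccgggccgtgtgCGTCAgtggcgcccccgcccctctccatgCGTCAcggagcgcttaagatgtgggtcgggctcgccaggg
Npas4: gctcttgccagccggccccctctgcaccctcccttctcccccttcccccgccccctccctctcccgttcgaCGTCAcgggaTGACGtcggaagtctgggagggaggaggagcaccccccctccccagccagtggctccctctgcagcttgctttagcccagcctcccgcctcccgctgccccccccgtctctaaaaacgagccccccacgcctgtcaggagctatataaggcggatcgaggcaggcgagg

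These windows hold 2, 4 and 2 matches. In windows of 300 bases around the start, TGACG on either strand was found for 15 of 26 immediate early genes with a window (57.7%), for 30.5% of all tested genes, for 30.3% of those that rose and for 30.1% of those that fell. The shares among genes that moved with age were thus close to that of all genes tested. Fos, the AP-1 subunit, stood at 44.5 and 48.2 CPM at 6 months and at 19.8 and 18.6 CPM at 18 months (log2 difference -1.27 ± 0.118, SE, adjusted p = 1.50e-08). Nr4a1, an orphan nuclear receptor, stood at 91.8 and 94.6 CPM against 49.9 and 58.7 CPM (adjusted p = 1.56e-07). Npas4, a transcription factor induced by calcium entry in neurons, stood at 3.78 and 3.70 CPM against 0.382 and 0.259 CPM, on 8 reads at 18 months. Egr1 stood at 16.5 and 17.8 CPM against 2.67 and 2.59 CPM, and Junb at 27.3 and 27.1 CPM against 10.0 and 9.06 CPM. In each of these 5 genes both 18-month libraries lay below both 6-month ones, as for 34.1% of all genes tested. Neuronal markers fell in the same libraries, and their part in this result was not tested.

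Mitochondrial RNA was lower at 18 months. All 7 tested mitochondrially encoded protein genes fell, with a median of -1.38, and the other 6 are listed at 0 in every library of the series. mt-Co1, a catalytic subunit of cytochrome c oxidase, stood at 5970 and 5627 CPM at 6 months and at 3103 and 3342 CPM at 18 months (adjusted p = 9.76e-11). The mitochondrial ribosomal RNAs took 6.152% and 4.322% of the counts at 6 months and 1.764% and 2.22% at 18 months. The small-subunit RNA mt-Rnr1 stood at 13166 and 9878 CPM against 2042 and 3540 CPM, and the large-subunit RNA mt-Rnr2 at 50054 and 33887 CPM against 14780 and 17700 CPM. In WT each of these 3 genes was higher at 18 months, and the age differences of the genotypes differed (log2 of KO over WT -1.57 for mt-Co1, -3.68 for mt-Rnr1 and -3.63 for mt-Rnr2). Nuclear genes of oxidative phosphorylation fell by less: of 76 tested, 30 fell and 2 rose (median -0.25), with 15 falls in DESeq2, 16 without the first 18-month KO library and 13 without the second 6-month KO library. Cox8a stood at 47.6 and 47.8 CPM against 25.8 and 32.9 CPM. Of 76 cytosolic ribosomal protein genes 18 fell and 1 rose (median -0.24). The falls were 23.7% of the list against 17.9% of all genes, and they included Rplp1 (57.7 and 62.0 CPM against 29.5 and 31.1 CPM). DESeq2 called 10 falls, and edgeR called 11 without the second 6-month KO library.

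Ribosomal RNA-like transcripts and the pituitary hormone gene Prl fell as well. Gm26917, a non-coding transcript that contains ribosomal RNA-like sequence, took 4.187% and 4.978% of the counts at 6 months and 1.669% and 1.817% at 18 months, and CT010467.1, annotated as rRNA, stood at 3004 and 2639 CPM against 175 and 425 CPM. Reads of repeated rRNA copies cannot be assigned to 1 locus with certainty. Prl, which encodes prolactin, stood at 219 and 220 CPM at 6 months and at 53.4 and 58.7 CPM at 18 months (3.92-fold lower, adjusted p = 1.34e-14), and it had 0 reads in all 4 WT libraries. Gh, which the same gland makes, had 0 reads in the 6-month KO libraries and 1 in the 18-month ones. Tshb, a thyrotropin subunit gene of the same gland, rose from 10.4 and 11.6 CPM to 16.6 and 15.8 CPM (adjusted p = 0.00665). Its call was lost with DESeq2 (0.0559), with the GC content offset (0.0942), without the first 18-month KO library (0.0588) and without the first 6-month KO library (0.0814).

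**Figure D4:**
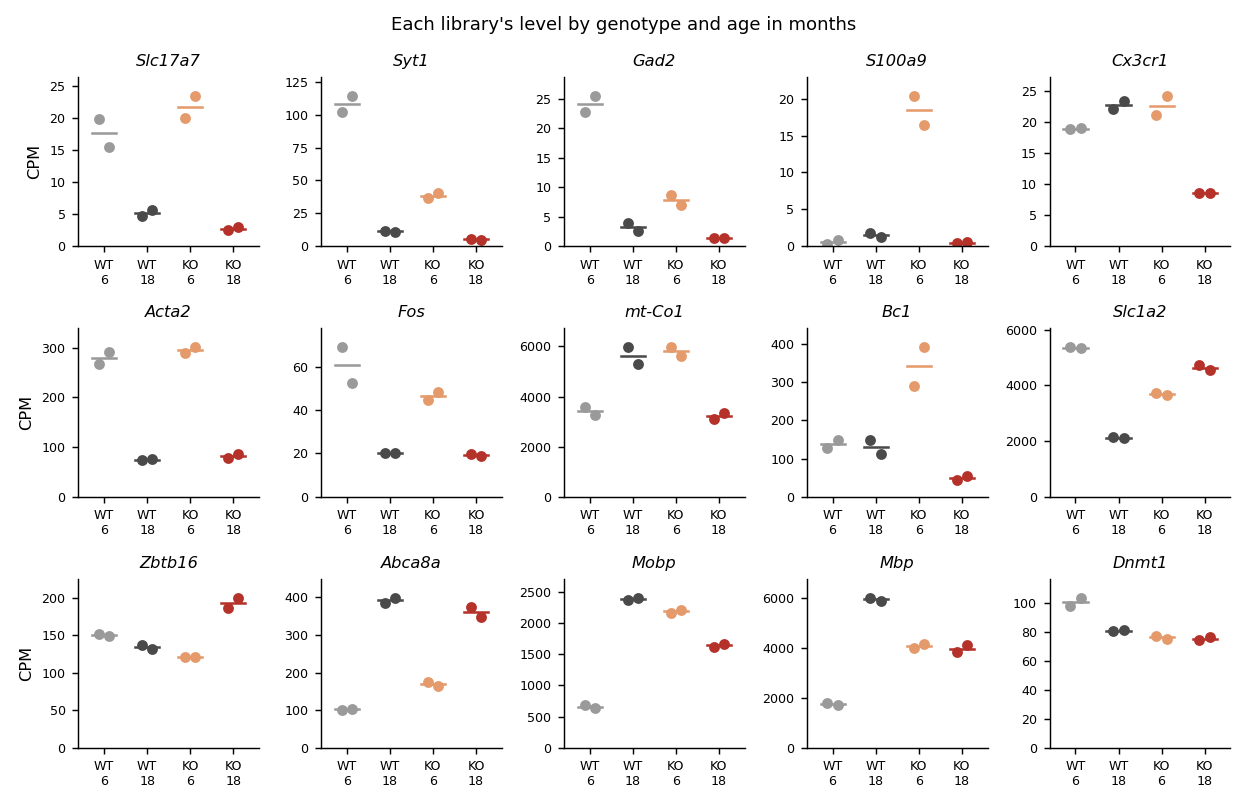
CPM (vertical axes, from 0) of 15 genes in each of the 8 libraries, as points, with a bar at the mean of each group of 2, by genotype and age in months. In KO, S100a9, Bc1 and Cx3cr1 are 40.2-fold, 6.86-fold and 2.62-fold lower at 18 months, Syt1, Acta2 and Fos are lower at 18 months in both genotypes, and Slc1a2 rises in KO (from 3707 to 4642 CPM) and falls in WT (from 5362 to 2131 CPM).

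Most astrocyte genes tested rose by small amounts. Of 23 tested, 14 rose, with a median of 0.24. In the main edgeR fit and by DESeq2 no member fell, and 1 had an unadjusted p under 0.05 as lower. With the GC content offset 1 fell, and the absence of falls did not hold without the second 18-month KO library. Rises were fewer without that library and without the first 6-month KO library. Slc1a2, the main glutamate transporter of astrocytes, stood at 3745 and 3668 CPM at 6 months and at 4722 and 4563 CPM at 18 months (3707 ± 54.6 against 4642 ± 112, SD, n = 2 each, 1.25-fold higher, adjusted p = 5.23e-06). Glul, the glutamine synthetase gene, stood at 3367 and 3358 CPM against 3910 and 4026 CPM. The connexin gene Gjb6 had the smallest p of the list, with 164 and 162 CPM at 6 months and 239 and 239 CPM at 18 months. Fgfr3, a growth factor receptor of astrocytes, stood at 456 and 481 CPM against 585 and 600 CPM. Aqp4, the water channel of astrocyte endfeet, stood at 171 and 159 CPM against 217 and 201 CPM (1.27-fold, adjusted p = 1.49e-04), and the call was lost with the GC content offset (log2 0.09, adjusted p = 0.207). Gfap, which marks reactive astrocytes, did not pass the test, at 29.4 and 29.3 CPM against 28.2 and 27.8 CPM. Of 26 glial channels, gap junctions and transporters, which overlap the astrocyte list, 16 rose and 3 fell (median 0.20). Kcnj10, the Kir4.1 channel of astrocytes and oligodendrocytes, stood at 350 and 356 CPM against 439 and 468 CPM, and its partner Kcnj16 at 32 and 31.8 CPM against 49.6 and 48.1 CPM.

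Of 17 tested genes of the glucocorticoid and metallothionein response 8 rose (47.1%, against 13.8% of all genes) and 5 fell (29.4%, against 17.9%). The median was 0.15, and with the GC content offset 11 rose and 1 fell. The falls came to 3 without the first 18-month KO library and 2 without the second 6-month KO library. Zbtb16, a transcriptional repressor induced by glucocorticoids, stood at 121 and 121 CPM at 6 months and at 187 and 200 CPM at 18 months (1.60-fold higher, adjusted p = 9.50e-09). Sgk1, a kinase gene and a common marker of this response, stood at 1004 and 998 CPM against 1423 and 1400 CPM, and Hif3a at 59.4 and 56.5 CPM against 94.6 and 106 CPM. Fkbp5, the receptor's co-chaperone, stood at 15.9 and 17.2 CPM against 31.5 and 29.2 CPM. In each of these 4 genes, all of them rises, both 18-month libraries lay above both 6-month ones, as for 33.2% of all genes tested. Of 22 circadian clock genes 6 rose (27.3%) and 2 fell (9.09%), with fewer rises without the first 18-month KO library. The repressor gene Nr1d2 stood at 68.3 and 61.8 CPM against 111 and 95.8 CPM, Per3 at 120 and 127 CPM against 164 and 170 CPM, and Per1 fell from 166 and 187 CPM to 139 and 147 CPM, a call lost with the GC content offset (adjusted p = 0.201) and without the second 6-month KO library (0.0643). The hour of collection was not given in the sources used here. Of 25 cholesterol synthesis genes 7 rose and 2 fell (6 and 0 with the GC content offset, and 4 rises without the second 6-month KO library), among them Lss, lanosterol synthase (109 and 115 CPM against 145 and 148 CPM).

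Genes known to rise in ageing glia moved in both directions. Of 25 tested, 4 rose (16.0%, against 13.8% of all genes) and 12 fell (48.0%, against 17.9%). Falls were fewer without the first 18-month KO library. C4b, the complement component that glia make with age, rose from 81.7 and 90.5 CPM to 152 and 151 CPM (1.76-fold, adjusted p = 1.53e-09). C4b has a near-identical neighbour, C4a, so its count is uncertain. Serpina3n, a protease inhibitor of reactive astrocytes, rose from 6.41 and 6.21 CPM to 11.7 and 11.6 CPM. Vim, an intermediate filament gene of glia and vascular cells, fell from 77.9 and 80.9 CPM to 34.1 and 35.3 CPM. The members that fell included Lyz2 and Cd74, given above with the myeloid genes.

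The oligodendrocyte lineage fell in part. Of 22 mature oligodendrocyte genes 9 fell (40.9%, against 17.9% of all genes) and 3 rose (13.6%, against 13.8%), with a median of -0.10. That median was 0.00 with library totals alone and 0.01 with the exon length offset. With the GC content offset it was -0.19, and 12 fell and 3 rose. Rises were fewer without the second 6-month KO library. Of 13 committed precursor genes 7 fell and 2 rose. Fewer of these rose without the first 18-month KO library and without the second 6-month KO library. Of 14 precursor genes 11 fell and 1 rose (median -0.36, and 8 and 2 with the GC content offset). Mbp did not pass the test, at the levels given above (adjusted p = 0.621). Mobp fell from 2164 and 2213 CPM to 1624 and 1669 CPM and Mal, a proteolipid of myelin, from 2769 and 2700 CPM to 1989 and 2003 CPM, while Anln, a septin-binding protein of myelin, rose from 430 and 412 CPM to 645 and 626 CPM. Among precursor genes, the proteoglycan gene Cspg4 stood at 320 and 355 CPM against 182 and 181 CPM (1.86-fold lower, adjusted p = 6.44e-11), and pericytes express it too. Pdgfra, the growth factor receptor that defines precursors, stood at 249 and 245 CPM against 201 and 209 CPM. Gpr17, a receptor of committed precursors, stood at 171 and 179 CPM against 98.6 and 103 CPM. Ptprz1, which astrocytes also express, was the precursor list's member that rose (732 and 710 CPM against 939 and 908 CPM). Fth1, the ferritin heavy chain, which is abundant in oligodendrocytes, fell from 1506 and 1531 CPM to 854 and 1032 CPM.

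Genes of DNA methylation moved in both directions. Of 26 tested writers, erasers and readers 5 rose and 6 fell (median 0.02), which is 42.3% against 31.7% of all genes, and 2 and 1 did so with the GC content offset. The rises came to 1 without the first 18-month KO library and to 1 without the second 6-month KO library. Mbd6, of the methyl-CpG binding domain family, had the smallest p and stood at 71.3 and 78.6 CPM at 6 months and at 41.4 and 50.4 CPM at 18 months (log2 difference -0.71, adjusted p = 1.93e-06), a call lost with the GC content offset (log2 -0.15). Zbtb33, which encodes the methyl-CpG binding protein Kaiso, rose from 16 and 15.8 CPM to 24.7 and 27.7 CPM (log2 difference 0.72, adjusted p = 7.36e-05). Dnmt3a, a de novo methyltransferase, stood at 237 and 240 CPM at 6 months and at 212 and 214 CPM at 18 months (1.12-fold lower, adjusted p = 0.0365). Its call was lost with the GC content offset (adjusted p = 0.203) and whichever KO library was left out (adjusted p from 0.0772 to 0.169). Dnmt3b did not pass, at 5.27 and 4.66 CPM against 4.73 and 6.12 CPM. Of 39 histone modifier genes 11 rose (28.2%, against 13.8% of all genes) and 10 fell (25.6%, against 17.9%). With the GC content offset 9 rose and 4 fell. Rises were fewer without the first 18-month KO library and without the second 6-month KO library. Of 27 chromatin remodellers and histone variants 11 fell and 3 rose (7 falls with the GC content offset, 7 without the first 18-month KO library and 7 without the second 6-month KO library), the fall with the smallest p being the linker histone gene Hist1h1c (66.6 and 71.3 CPM against 18.8 and 17.4 CPM), and the linker histone gene H1f0 stood at 148 and 136 CPM against 82.0 and 84.1 CPM. Of 28 imprinted genes 11 fell (39.3%) and 7 rose (25.0%), with Meg3 falling by the most. With the GC content offset 3 rose and 13 fell, and rises were fewer whichever KO library was left out.

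Among the genes named by largest fold, which leave out clone names, the rises were smaller than the falls, and both lay mostly among low-abundance genes. Cdh8, a cadherin of neuronal adhesion, stood at 4.12 and 5.13 CPM at 6 months and at 20.3 and 22.3 CPM at 18 months (4.60-fold higher, adjusted p = 8.13e-10). Clic5, a chloride intracellular channel family gene, stood at 6.30 and 8.48 CPM against 34.2 and 33.6 CPM. The transcription cofactor gene Eya4 stood at 8.47 and 6.21 CPM against 22.6 and 27.5 CPM, and the matrix protein genes Svep1 and Thbs2 were 2.95-fold and 2.28-fold higher. At higher levels, Abca8a, a lipid transporter gene of the ABC family, stood at 175 and 163 CPM against 373 and 347 CPM (2.13-fold higher, adjusted p = 1.91e-12), and Kif1b, a kinesin that carries organelles along axons, at 2238 and 2222 CPM against 3039 and 3033 CPM. Qk, an RNA-binding protein of glia, stood at 2047 and 1837 CPM against 2620 and 2279 CPM, a call lost with the GC content offset (adjusted p = 0.279), with DESeq2 (0.0525) and without the second 6-month KO library (0.0508). Pcdhb11, of the clustered protocadherins, was 4.53-fold higher, and its near-identical neighbours make that count uncertain.

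Annotation classes differed in direction. Of 1443 tested transcripts of GENCODE's TEC class, loci that await experimental evidence, 351 rose and 42 fell (median 0.40), which became 115 and 65 with the GC content offset. Of 13756 protein-coding genes 1832 rose (13.3%) and 3082 fell (22.4%), while of 614 lincRNA genes 86 rose and 33 fell. Median GC content was 41.4% among the TEC transcripts and 49.9% among the protein-coding genes.

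The age comparison in WT, fitted in the same model and sharing no library with the one in KO, called 5133 genes higher (28.2%) and 5615 lower (30.8%). The log2 differences of the 2 genotypes had a Pearson correlation of 0.48 and a Spearman correlation of 0.39 across the genes tested, which are not independent replicates, and both tilted with GC content. Of the genes that rose in KO 1430 also rose in WT, 56.9% of the KO list and 27.9% of the WT list. Of those that fell in KO 2000 also fell in WT, 61.3% and 35.6%. The opposite direction in WT was called for 437 of the KO rises and 576 of the KO falls. The test of the difference itself passed for 3358 genes with KO above WT (18.4%) and for 3768 with KO below WT (20.7%). Scaling by library totals alone gave 4769 above and 2651 below WT, so this split depends on the scaling too.

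The direction of that difference varied between lists. In the astrocyte list, 22 of 23 genes had a KO age difference above that in WT and 1 below, since the median was 0.24 in KO and -1.64 in WT. Slc1a3, the second astrocyte glutamate transporter, stood at 1015 and 1019 CPM at 6 months and at 1217 and 1257 CPM at 18 months in KO, while the WT means were 1976 and 613 CPM. The difference of the log2 changes was 1.97 (adjusted p = 5.72e-16). Trim9, a ubiquitin ligase gene, and Lfng, a modifier of Notch receptors, showed the same arrangement, with differences of 2.26 and 2.76, and the rise of Lfng in KO was lost without the first 6-month KO library (adjusted p = 0.0615). In the mature oligodendrocyte list all 22 genes lay below WT, with medians of -0.10 in KO and 1.52 in WT. Apod, an apolipoprotein gene expressed in oligodendrocytes, stood at 1356 and 1342 CPM against 1156 and 1272 CPM in KO, while the WT means were 473 and 2475 CPM. Its fall in KO (adjusted p = 0.0295) was lost with DESeq2 (0.0548), with library totals (0.443) and without the first 18-month KO library (0.336) and without either 6-month KO library (0.134 and 0.124). For Mobp, Mal, Opalin and Fth1 the differences were -2.26, -1.94, -2.17 and -2.85. Of the 18 microglial genes 15 lay below WT and 1 above. Of the 41 genes of synaptic release 18 lay above WT and 7 below, of the 43 receptor genes 22 and 3, of the 41 channel genes 21 and 5, and of the 16 excitatory neuron markers 4 and 4. Of single neuronal genes, Snap25, Syt1, Meg3 and Rbfox3 fell in both genotypes, and the test of the difference did not pass for them (adjusted p from 0.0957 to 0.954), while Slc17a7 fell more in KO (-1.27) and Gad1 fell more in WT (2.14). Efnb3 lay below WT (log2 -1.91), and its fall in KO was lost with the GC content offset (adjusted p = 0.771).

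**Figure D5:**
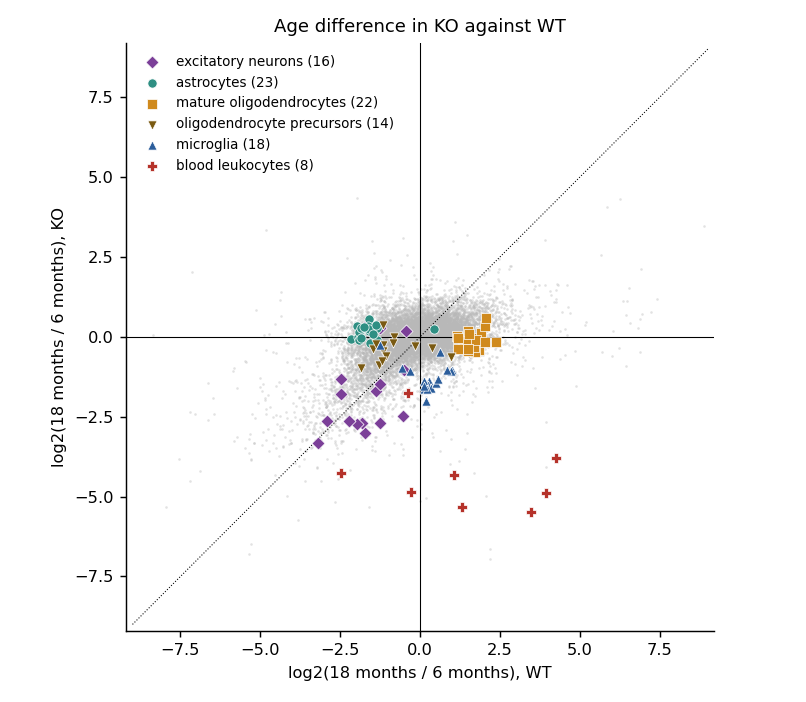
Log2 of 18 over 6 months in KO (vertical axis) against the same in WT (horizontal axis) for the 18205 genes tested (grey) and for 6 marker lists, with a dotted line where both are equal. Astrocyte genes lie to the left (WT median -1.64, KO median 0.24), mature oligodendrocyte genes to the right (1.52 and -0.10), and excitatory neuron genes lie mostly below 0 on both axes.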

How the data were processed

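RNA of sorted cortical cells was sequenced in 8 libraries, 2 technical replicates for each genotype and age. The submitters' processing notes name CASAVA 1.8.2, STAR 2.5.2a, featureCounts 1.5.0-p1 and the mm10 genome, and the deposited values are raw read counts per Ensembl gene. The sources used here do not give settings for strand, multimapping or annotation. Symbols came from GENCODE vM21 for 55480 of 55573 gene identifiers. The labels' titles gave the groups.

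The counts were fitted in edgeR 4.0.16 (R 4.3.3, limma 3.58.1) with TMM scaling, filterByExpr at a minimum count of 10, which kept 18205 genes and at least 99.72% of each library's counts, and quasi-likelihood F tests with Benjamini-Hochberg adjustment at 0.05. All 8 libraries entered 1 fit with a mean per group, leaving 4 residual degrees of freedom, and the common biological coefficient of variation was 0.0539. Fold changes come from the fit, SE is the log2 fold change divided by the root of F, and CPM is TMM-scaled over the tested genes. Fold limits used glmTreat. Library totals ranged from 6008175 to 13551218 reads, the 2 libraries of a group differed by more than counting noise (chi-square per gene 3.789 and 3.425 in KO), and counting intervals or floors would cover counting error only. On simulated counts for the KO age comparison, 58 of 100 genes changed 1.5-fold and 76 of 100 changed 2-fold were recovered, with 3 of 17330 unchanged genes called. Unchanged genes had the same mean in every group, no tilt with GC content was simulated, and the spread was that fitted to these libraries. The simulation therefore does not measure the rate of false calls in the data.

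Named genes are Dnmt1, Dnmt3a, Dnmt3b, Pvalb, Gad1, Gad2 and Prl; the 12 largest folds in each direction among genes that passed, reached 10 CPM in 1 age group, had ages that do not overlap and bore no clone name; the 5 largest CPM differences and the 6 smallest p of the genotype difference in each direction; up to 4 members of each list by p, the first 3 markers of each cell type, and further members counted beside their list. The GENCODE transcript gave GC content, and RefSeq gave promoter windows for 11672 of the tested genes. The comparison and the lists were chosen with earlier results of these data known. Alternatives were DESeq2 1.42.0, RLE and upper quartile scaling, library totals, other filters, an exon length offset, KO libraries alone, a replicate block, leaving out each library, and leaving out abundant genes. The GC content offset was chosen after seeing the data. Some genes that the naming rule gives are not reported here.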

Additional observations from a re-analysis of the deposited data

Results flagged for a closer look

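For the genes named above, the age difference in KO minus that in WT passed the edgeR test of the difference for the following (log2 values, adjusted p under 0.05). The part of cell type content or GC content in these values was not tested.

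Blood, myeloid and microglial genes lay below WT: S100a8 -8.95, S100a9 -6.64, Ngp -5.38, Lyz2 -4.91, Hbb-bs -4.16, Tmem119 -1.75, C1qa -1.74, Cx3cr1 -1.66 and Csf1r -1.64. The value for S100a8 depends on the prior count of the fit, since its mean in WT at 6 months was 0.0812 CPM. Mitochondrial RNAs lay below WT at -1.57 for mt-Co1, -3.68 for mt-Rnr1 and -3.63 for mt-Rnr2, with Cox8a at -0.53 and Rplp1 at -1.27. Of the neuronal genes named, Bc1, Slc17a7, Camk2a, Miat and Snhg11 lay below WT at -2.67, -1.27, -0.77, -0.60 and -0.59, while Gad1, Gria2, Kcnc1 and Scn8a lay above it at 2.14, 1.60, 0.96 and 0.35.

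Of the mature oligodendrocyte list, Apod lay below WT at -2.54, Mobp -2.26, Opalin -2.17, Mal -1.94, Mbp -1.81 and Anln -1.47. The same direction was found for genes outside that list, which were Fth1 (-2.85), C4b (-2.32), H1f0 (-2.00), Efnb3 (-1.91), Hist1h1c (-1.82), Phlda3 (-1.60), Nkd1 (-1.52), Dnm3 (-1.13), Qk (-1.02), Map1lc3a (-0.95), Abca8a (-0.85), Mbd6 (-0.81), Serpina3n (-0.80), Kif1b (-0.74), Clic5 (-0.64), Sgk1 (-0.45), Ltbp4 (-0.43), Kcnj10 (-0.43) and Atg4c (-0.40).

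Of the astrocyte list, Fgfr3 lay above WT at 2.32, Gjb6 2.14, Gfap 2.10, Slc1a3 1.97, Aqp4 1.94 and Slc1a2 1.66, and Glul lay below it at -0.20. Of the named genes of glucocorticoid response, clock and cholesterol synthesis, Hif3a lay above WT at 1.93, Per3 1.43, Fkbp5 1.06 and Zbtb16 0.84. So did Nr1d2 at 0.73, Lss 0.49 and Per1 0.44, while Sgk1 lay below WT at -0.45. In these 3 lists, 10 of 17, 13 of 22 and 10 of 25 tested genes lay above WT, and 3, 5 and 3 below. Vascular and matrix genes lay above WT at 1.46 for Col3a1, 1.46 for Col6a1, 1.34 for Thbs2, 1.10 for Cldn5, 1.03 for Kcnj8, 0.88 for Rgs5, 0.66 for Vim and 0.61 for Pdgfrb. The remaining values, all above WT, were Lgr6 3.02, Lfng 2.76, Trim9 2.26, Kcnj16 2.00, Pcdhb11 1.76, Ptprz1 1.52, Pdgfra 0.89, Gpr17 0.73, Zbtb33 0.57, Cspg4 0.39 and Dnmt1 0.30.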

How the results depend on the processing

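Against 2512 genes higher and 3263 lower in KO at 18 months, DESeq2 gave 1551 and 2185, the exon length offset 4085 higher and library totals 3839 higher. Past a 1.5-fold change, against 126 higher and 901 lower, DESeq2 gave 26 and 448, the GC content offset 76 higher, the exon length offset 197 higher and library totals 201 higher. Leaving out each library in turn gave from 1231 to 2748 genes higher and from 2049 to 3470 lower, and past 1.5-fold from 55 to 147 higher and from 628 to 940 lower. For the difference between genotypes these ranges were 2826 to 3255 above WT and 3181 to 3539 below. The cause of these changes was not tested. Where leaving out a library left a group with 1 sample, that sample was assumed to vary like the other groups.

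Of the 117 genes named, 2 that had passed changed sign with the GC content offset, Efnb3 (log2 0.02) and Per1 (0.09), neither past the threshold, and no other alternative reversed the sign of a call among them. Cldn5 and Kcnj8 passed as higher with this offset (0.67 and 0.21). In the lists of synaptic release, collagens, nuclear oxidative phosphorylation, ribosomal proteins, immediate early and interferon genes the rises, 1 or 2 in each, came to 1 or 0 in at least 1 fit without a KO library, as did the 2 falls of the clock and cholesterol lists and the 3 of glial transporters. Replicate numbers did not pair the samples: deviations of same-numbered KO libraries had a correlation of 0.0758 across genes. A fit with the replicate block gave 2827 higher and 3474 lower genes, 145 and 931 past 1.5-fold, and 3524 above and 3970 below WT for the difference. Depth limits genes of few reads, and 2 libraries of 1 pool per group leave the spread between mice unmeasured.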

Other observations

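Signalling genes of several pathways moved in both directions, beside 17.9% of all genes tested that fell and 13.8% that rose. Of 28 Notch pathway genes tested, 10 fell (35.7%) and 2 rose (7.14%) at 18 months in KO. With the GC content offset 6 fell and 2 rose. Falls were fewer without the first 18-month KO library and without the second 6-month KO library. Notch3, the Notch receptor of vascular smooth muscle, stood at 172 and 179 CPM at 6 months and at 84.5 and 92.0 CPM at 18 months (1.99-fold lower, edgeR adjusted p = 8.68e-11), and its target Heyl at 29.3 and 33.7 CPM against 16.0 and 16.6 CPM. Acta2 and Myh11, the smooth muscle genes, fell in the same libraries, and their part in this was not tested. Of 38 Wnt pathway genes 8 rose (21.1%) and 10 fell (26.3%), with 9 and 6 under the GC content offset. Rises and falls were both fewer whichever KO library was left out. The receptor gene Lgr6 stood at 28.9 and 27.6 CPM against 50.0 and 50.4 CPM in KO, while its WT means were 79.3 and 17.2 CPM. The feedback inhibitor gene Nkd1 stood at 97.6 and 96.3 CPM against 54.3 and 62.8 CPM, and Ltbp4, which binds latent TGF-beta, at 31.5 and 36.3 CPM against 15 and 16.3 CPM.

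Genes of membrane traffic also split. Of 66 clathrin endocytosis and endosome genes 23 fell (34.8%) and 10 rose (15.2%), and 15 and 4 did with the GC content offset. Falls and rises were both fewer without the first 18-month KO library and without the second 6-month KO library. Dnm1, the neuronal dynamin, stood at 58.7 and 64.7 CPM at 6 months and at 12.5 and 14 CPM at 18 months, whereas Dnm3 stood at 277 and 272 CPM against 383 and 386 CPM, so dynamin genes moved in opposite directions in the same libraries. Of 45 autophagy genes 8 fell (17.8%, against 17.9% of all genes) and 4 rose (8.89% against 13.8%), so the list did not stand above the share of all genes (5 falls without the first 18-month KO library and 3 without the second 6-month KO library). Map1lc3a, a gene for the autophagosome protein LC3, stood at 40.7 and 43.8 CPM against 22.5 and 22.4 CPM, and the protease gene Atg4c at 51.5 and 44.7 CPM against 83.1 and 77.5 CPM. Of 25 p53 target and senescence genes 7 fell (28%, against 17.9% of all genes) and 2 rose (8.0%, against 13.8%). The rises were lost without the first 18-month KO library and without the second 6-month KO library. Phlda3 stood at 75.4 and 75.2 CPM against 45.0 and 39.3 CPM. Of 55 lysosome genes 12 fell (21.8%) and 5 rose (9.09%), and of 40 proteasome genes 9 fell (22.5%) and 2 rose (5.0%). Scaling by library totals gave 3 falls and 10 rises for the lysosome and 1 fall and 5 rises for the proteasome. No direction is therefore given for either list.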
